A study of Mus musculus with 12 samples.

Results

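The genes described here are the mouse protein-coding genes whose symbol is Zfp followed by a number of 3 digits from 700 upwards and no further letter. The annotation (GENCODE M21, genome build GRCm38) lists 128 of them, and 127 were among the 35453 genes to which reads were assigned. The genes were chosen by name, but the range of names was itself selected on measured values of these libraries, the polysome over input ratios under Veh and under Rosi. Those ratios are therefore given as descriptions without a test, and the response to Rosi was tested within input and within polysome RNA. Those tests are not independent of the choice, because they use the same libraries, and a high ratio under Rosi favours a low level in input Rosi and a high one in polysome Rosi. Of the 127 genes, 104 had enough reads to enter the fit of all 4 groups, 101 entered the comparison within input and 103 the comparison within polysome RNA.

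The cells were stromal vascular fraction (SVF) cells, the nonfat cells of adipose tissue that include adipocyte progenitors, taken from epididymal fat of male obese Lepob/Lepob mice aged 12 weeks. Every group carried the Lepob mutation and was induced for 2 days with an adipogenic cocktail. It was given together with rosiglitazone (Rosi), an agonist of the fat cell receptor PPARγ, at 1 µM, or with vehicle (Veh, DMSO). Maintenance medium with insulin and again Rosi or DMSO followed, for 4 days of differentiation in total. Cycloheximide, which holds ribosomes on mRNA, was present in the last 5 minutes. Poly(A) RNA was sequenced from total lysate (input) and from the pooled sucrose gradient fractions of mRNAs loaded with several ribosomes (polysome), with 3 libraries per group, of which 2 input Veh libraries held the same values and were counted as 1. The groups were thus input Veh (n = 2), input Rosi (n = 3), polysome Veh (n = 3) and polysome Rosi (n = 3).

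Zfp genes encode proteins with C2H2 zinc fingers, small folds in which a pair of cysteines and a pair of histidines hold a zinc ion and whose tips read DNA bases. Most high-numbered Zfp genes belong to the KRAB family, in which a KRAB domain at the start of the protein recruits the corepressor Trim28 and, through it, the histone methyltransferase Setdb1 and heterochromatin proteins. The family expands by duplication into clusters of similar genes, and many members silence transposable elements and endogenous retroviruses, while zinc finger proteins without a KRAB domain serve more varied roles in transcription and development.

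A KRAB box was looked for in the translated coding sequences as a match at 18 or more of 26 defining positions. It was found in 103 of the 127 genes, whose best matches reached 18 to 26 positions, whereas the other 24 genes reached at most 15. At least 3 zinc fingers were counted in 113 of the 127. The absence of a match says only that these letters were not found, and Zfp746 and Zfp956, which lie beside the KRAB genes Zfp777 and Zfp786 on chromosome 6, reached 15 and 11 positions. The transcripts of these genes were poor in G and C. The median GC content of the longest-coding transcript was 40.3% over the 127 genes, 39.6% over those with the KRAB pattern and 53.4% over those without, against 49.4% over the other 21539 protein-coding genes. At the third position of codons, where most base changes leave the amino acid as it is, the median GC content was 34.9% with the KRAB pattern and 59.8% without it.

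Single zinc fingers illustrate codon endings, in genes picked by their ratio and not by the KRAB pattern. Zfp777, among those with low ratios, has the pattern. One finger of 28 codons is shown for each of the 3 genes with the highest and the 3 with the lowest polysome over input ratio that had mostly unique sequence and a finger of standard spacing followed by the conserved linker. Each runs 5′ to 3′ from its first cysteine codon to the codon before the next finger, on GENCODE M21 transcripts (GRCm38), with the codons of the zinc-binding cysteines and histidines in capitals.
Zfp946, chr17:22454996-22455079, plus strand: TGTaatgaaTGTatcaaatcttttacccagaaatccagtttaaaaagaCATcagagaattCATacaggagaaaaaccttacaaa
Zfp873, chr10:82059893-82059976, plus strand: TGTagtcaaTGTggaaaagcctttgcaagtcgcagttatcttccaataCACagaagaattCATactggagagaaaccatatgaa
Zfp959, chr17:55897829-55897912, plus strand: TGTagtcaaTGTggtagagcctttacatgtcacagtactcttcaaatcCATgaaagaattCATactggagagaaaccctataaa
Zfp865, chr7:5030071-5030154, plus strand: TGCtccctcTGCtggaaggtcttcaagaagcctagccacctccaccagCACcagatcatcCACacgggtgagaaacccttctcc
Zfp777, chr6:48025130-48025213, minus strand: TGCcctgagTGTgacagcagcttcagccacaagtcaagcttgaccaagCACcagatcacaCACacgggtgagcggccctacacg
Zfp956, chr6:47963687-47963770, plus strand: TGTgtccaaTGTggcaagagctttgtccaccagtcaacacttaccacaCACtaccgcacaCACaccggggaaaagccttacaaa
In the 3 genes with high ratios, Zfp946, Zfp873 and Zfp959, 6, 4 and 5 of the 28 codons ended in G or C. In Zfp865, Zfp777 and Zfp956, which had low ratios, 25, 23 and 16 of the 28 codons did. The finger of Zfp946 encoded the same residue as that of Zfp959 at 17 of 28 positions and as that of Zfp777 at 17 also, but it shared 55 of 84 bases with the former and 47 with the latter. With Zfp873, of high ratio, it shared 16 residues and 50 bases. With Zfp956 and Zfp865, of low ratio, it shared 17 and 15 residues and 50 and 37 bases.

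The level of these genes was low. The median over the 127 genes of the mean over the 5 input libraries was 1.55 TPM (transcripts per M transcripts, M being the usual mega, a measure corrected for transcript length), and 14 genes lay above 10 TPM. The 6 highest by TPM were Zfp706, Zfp771, Zfp703, Zfp787, Zfp969 and Zfp740. Zfp706, a small zinc finger protein studied in the exit from stem cell pluripotency, stood at 56.0 ± 10.7 TPM (SD, n = 5), and Zfp703, a transcriptional corepressor, at 32.5 ± 3.65 TPM. Zfp771 stood at 38.9 ± 4.75 TPM, Zfp787 at 21.4 ± 1.78 TPM and Zfp740 at 16.8 ± 1.74 TPM. The libraries of Zfp706 ranged from 42.1 to 70.0 TPM and those of Zfp771 from 33.7 to 45.5 TPM, so that these neighbours overlapped, as did Zfp771 and Zfp703, which ranged from 27.3 to 36.1 TPM. None of these named genes except Zfp969 carried the KRAB pattern. Zfp969, at 17.7 ± 9.83 TPM, had no 31-base stretch of its own, since every one was shared with another gene, and its level is uncertain.

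Sequence sharing limits several members. The share of 31-base stretches found in no other gene had a median of 90.4%, but it was 50% or less in 24 genes, 15 of them tested. Reads of these genes were divided among near-identical copies by the quantification, and their values are uncertain. At the low end, 13 of the 127 genes had fewer than 10 estimated reads over the 11 libraries, among them Zfp819 and Zfp831. Zfp735, Zfp869 and Zfp986 had none, which allows a level of up to 0.0131 CPM (counts per M counts of a library, not corrected for length) from counting error alone (3 counts over all libraries). Of the 23 genes that were not tested, 18 had the KRAB pattern.

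Depth ranged from 17.4 M to 24.0 M estimated reads in each library. Along the first principal component, which held 50.3% of the variance, polysome Veh replicate 1 and polysome Rosi replicate 3 stood farther from input than the other polysome libraries. The adipocyte markers Adipoq, Plin1, Fabp4 and Cidec were called higher with Rosi in input and in polysome RNA (4 of 4 each), their summed level being 67.2 to 71.8 CPM in input Veh and 619 to 690 CPM in input Rosi. The macrophage markers Lyz2, Adgre1, Csf1r and Cd68 summed to 11818 to 13073 CPM in input Veh and 8489 to 9420 CPM in input Rosi, and 1 of the 4, Lyz2, was called lower there. The progenitor markers Pdgfra, Dpp4, Col1a1 and Dcn summed to 3771 to 4575 CPM in input Veh and 3514 to 4532 CPM in input Rosi. In input Rosi, Lyz2 held a mean of 7465 of the 8827 CPM of the macrophage markers. Col1a1 held 3893 of the 4085 CPM of the progenitor markers. Whether cell makeup changed, and its part in the results below, was not tested. In bulk RNA fewer cells of a type and less RNA per cell cannot be told apart.

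Most of the genes made up a larger share of polysome RNA than of input. Under Veh the fitted log2 fold change of polysome over input was above 0 for 85 and below 0 for 19 of the 104 genes, with a median of 0.50 against 0.02 over all 14027 genes tested. Under Rosi it was above 0 for 83 and below 0 for 21, with a median of 0.83 against 0.00. The summed TPM of the 127 genes was 499 ± 2.76 in input Veh (n = 2), 481 ± 8.36 in input Rosi, 637 ± 17.5 in polysome Veh and 632 ± 16.6 in polysome Rosi (SD, n = 3 each), and every polysome library lay above every input library.

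With thresholds of 0.05 for the adjusted p and 1 for the size of the log2 fold change, 8 of the 104 genes lay past both under Veh (6 higher and 2 lower in polysome RNA), beside 9.69% of all genes in either direction, 2.99% higher and 6.69% lower. Under Rosi 38 did (37 higher and 1 lower), beside 11.3% of all genes in either direction, 6.49% higher and 4.85% lower. Every polysome library lay above every input library for 58 of the 104 genes under Veh (32.6% of all genes) and for 75 under Rosi (33.7% of all genes). Since these ratios helped to choose the genes, the counts are a description and nothing is read from them. Without polysome Veh replicate 1 the count under Veh was 4, beside 7.11% of all genes.

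**Figure D1:**
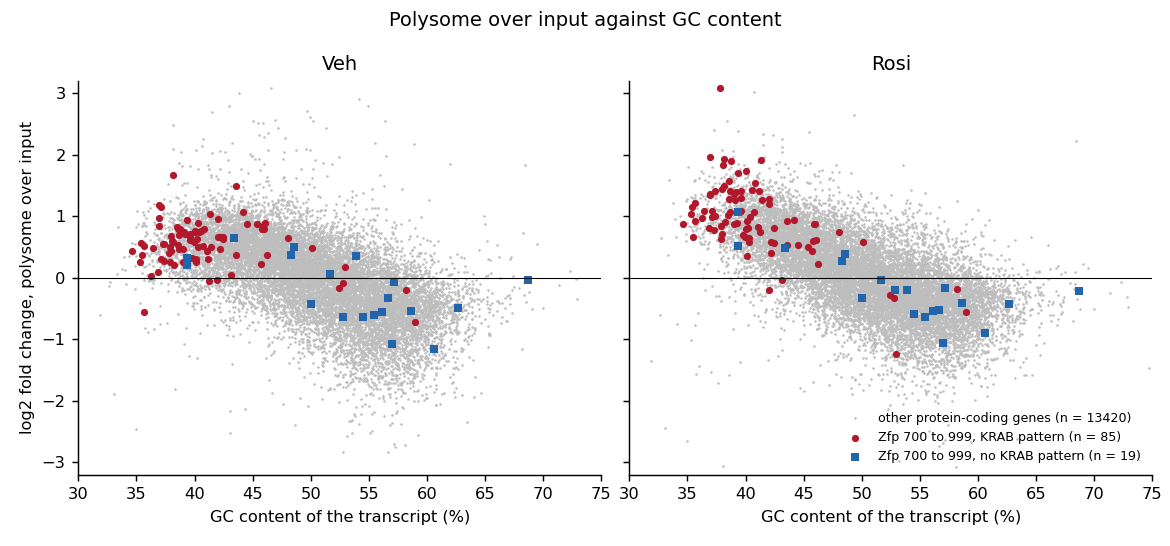
Log2 fold change of polysome over input (y axis) against the GC content of the longest-coding transcript in percent (x axis), under Veh (left) and Rosi (right), 1 point per gene tested, with the y axis ending at 3.2 on either side (22 other genes under Veh and 9 under Rosi lie outside it). The high-numbered Zfp genes with the KRAB pattern (85, red) sit mostly below 46% GC and above 0, those without it (19, blue) mostly above 50% GC and below 0, and both lie within the cloud of the other 13420 protein-coding genes (grey).

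The ratio of polysome to input fell with GC content in these genes under Rosi, and in other genes under both treatments. Under Veh the relation was weaker in these genes. Across the 104 genes, Spearman's rho between GC content and the log2 fold change of polysome over input was -0.32 under Veh and -0.71 under Rosi, and across the other 13420 protein-coding genes tested it was -0.65 and -0.67 (genes are not independent replicates, and the points share libraries). Among the 85 KRAB genes alone it was 0.02 under Veh and -0.54 under Rosi. Among genes of 38 to 42% GC, the median under Rosi was 1.08 over 40 high-numbered Zfp genes and 0.81 over 1119 other protein-coding genes, and under Veh 0.59 and 0.58. Below 38% GC the medians were 1.03 (22 genes) and 0.88 (186 other genes) under Rosi, and 0.46 and 0.42 under Veh. From 42 to 46% GC they were 0.58 (17 genes) and 0.55 (2248 other genes) under Rosi, and 0.67 and 0.48 under Veh. From 46 to 50% GC they were 0.39 (5 genes) and 0.17 (2808 other genes) under Rosi, and 0.50 and 0.23 under Veh. At 50% GC and over, the direction turned, to -0.36 (20 genes) and -0.33 (7059 other genes) under Rosi and to -0.38 in both under Veh.

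When the trend with GC content was removed from each library, an alternative added after the data were seen, the median of polysome over input fell to 0.06 under Veh and 0.10 under Rosi. Then 1 of the 104 genes lay past the thresholds on the higher side under Veh, Zfp964, beside 1.31% of all genes, and 4 under Rosi, Zfp708, Zfp759, Zfp873 and Zfp946, beside 1.85%. These counts too are a description of the ratios that guided the choice, and nothing is read from them. Whether the GC trend came from library preparation or from the cells was not tested.

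By their medians, the genes with the KRAB pattern and those without it stood on opposite sides of 0. Those without it include Zfp746 and Zfp956, and a missing match does not show that a KRAB domain is absent. The 85 tested genes with the KRAB pattern had medians of 0.55 under Veh and 0.93 under Rosi, with 78 above 0 under each treatment. The 19 tested genes without it had medians of -0.32 and -0.22, with 7 and 5 above 0. At like GC content this split could hardly be read, since 14 of the 19 genes without the pattern had 50% GC or more and 6 of the 85 with it did. Those 6 KRAB genes had medians of -0.12 under Veh and -0.30 under Rosi, beside -0.51 and -0.41 for the 14. Below 50% GC, every tested gene without the pattern lay above 0 under both treatments. Under Rosi the medians of those genes were 0.80 at 38 to 42% GC (2 genes), 0.49 at 42 to 46% (1 gene) and 0.33 at 46 to 50% (2 genes). The KRAB genes had 1.18 (38 genes), 0.59 (16 genes) and 0.62 (3 genes) there.

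Among the Zfp genes numbered below 700, the 105 tested with the KRAB pattern had medians of 0.46 under Veh and 0.57 under Rosi and a median GC content of 43.6%, while the 117 without it had medians of 0.03 and -0.07 and a GC content of 50.6%. The Zfp genes on either side of the lower number limit were Zfp697, at a log2 fold change of 0.20 under Veh and 0.06 under Rosi, and Zfp703, at -1.15 and -0.89. The highest number within the range was Zfp995, at 0.62 and 1.41, and no protein-coding Zfp gene had a number above the range.

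**Figure D2:**
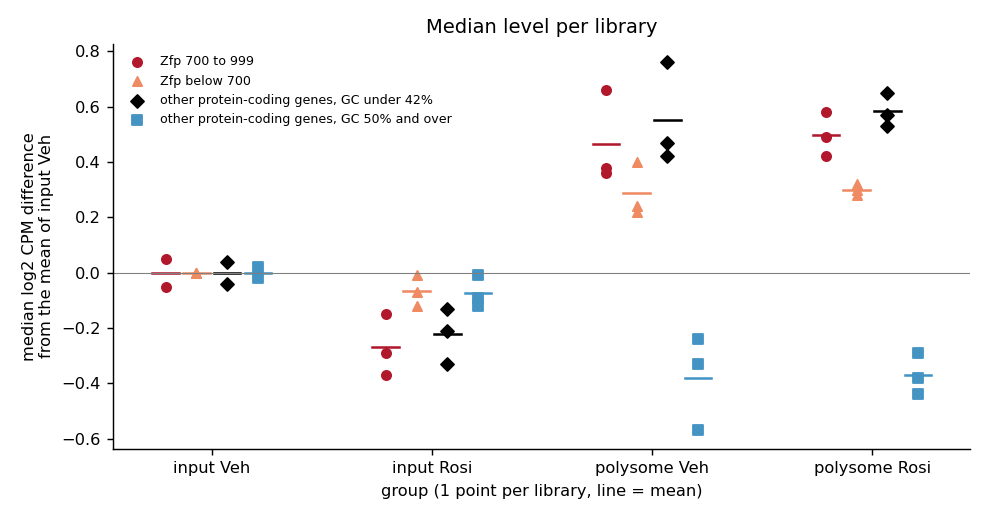
Median over genes of the log2 CPM difference from the mean of input Veh (y axis) in each of the 11 libraries (points, with the group mean as a line), for 4 sets of genes. The high-numbered Zfp genes lie between 0.36 and 0.66 in the polysome libraries and at -0.15 or lower in input Rosi, beside other protein-coding genes of under 42% GC, while genes of 50% GC and over lie between -0.57 and -0.24 in polysome RNA.

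Seen library by library, the median gene of the group stood 0.36 to 0.66 above the mean of input Veh on the log2 scale in polysome Veh and 0.42 to 0.58 above it in polysome Rosi (with a prior count that draws low values together). The highest value, 0.66, belonged to polysome Veh replicate 1, in which other protein-coding genes of under 42% GC were also highest, at 0.76, and genes of 50% GC and over lowest, at -0.57. In input Rosi the group stood at -0.15, -0.29 and -0.37, all below the input Veh libraries at -0.05 and 0.05. The polysome Veh and polysome Rosi libraries overlapped, so that the larger ratio under Rosi went with a lower level in input.

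The genes with the highest mean ratio over the 2 treatments were Zfp781, Zfp708, Zfp946, Zfp873, Zfp759 and Zfp959, all with the KRAB pattern. Zfp946, on chromosome 17 at 22424222-22456689, measured 6.18 and 9.28 CPM in input Veh, 6.26, 3.96 and 2.98 CPM in input Rosi, 22.3, 15.3 and 15.5 CPM in polysome Veh and 18.3, 14.6 and 18.4 CPM in polysome Rosi. Every polysome library was above every input library, and the fitted ratio was 2.28-fold under Veh and 3.92-fold under Rosi. Zfp873 (chromosome 10, 82048123-82064745) measured 1.83 and 1.39 CPM in input Veh, 0.986, 1.36 and 1.12 CPM in input Rosi, 3.59, 3.46 and 2.82 CPM in polysome Veh and 4.07, 4.51 and 4.51 CPM in polysome Rosi. Its groups did not overlap either, and its ratio was 2.05-fold under Veh and 3.75-fold under Rosi.

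Zfp959 (chromosome 17, 55892093-55898928) stood at 2.90 ± 0.122 CPM in input Veh (n = 2), 1.81 ± 0.157 CPM in input Rosi, 5.56 ± 0.787 CPM in polysome Veh and 5.90 ± 0.515 CPM in polysome Rosi (SD, n = 3). Zfp759 was rarer, at 0.946 ± 0.132 CPM in input Veh, 0.478 ± 0.0583 CPM in input Rosi, 1.65 ± 0.696 CPM in polysome Veh and 1.80 ± 0.379 CPM in polysome Rosi. Both were separated from input in polysome RNA under each treatment. The highest ratios of all, those of Zfp781 and Zfp708, are uncertain, because 2.32% and 4.41% of their 31-base stretches were unique. Zfp708, known to bind a family of endogenous retroviral repeats, was at 0 reads in 2 of the 3 input Rosi libraries.

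The genes with the lowest mean ratio were Zfp865, Zfp703, Zfp777, Zfp710, Zfp956 and Zfp746. Zfp865 (chromosome 7, 5020376-5036768) measured 26.6 and 27.2 CPM in input Veh, 28.3, 22.4 and 24.3 CPM in input Rosi, 9.47, 14.4 and 14.3 CPM in polysome Veh and 12.7, 12.5 and 11.1 CPM in polysome Rosi. All its polysome libraries lay below all its input libraries, with log2 fold changes of -1.08 (SE 0.16) under Veh and -1.05 (SE 0.15) under Rosi. Zfp703 (chromosome 8, 26977325-26981461), which represses transcription, measured 68.4 and 74.9 CPM in input Veh, 71.7, 58.4 and 57.5 CPM in input Rosi, 24.9, 36.3 and 35.4 CPM in polysome Veh and 33.8, 36.5 and 30.9 CPM in polysome Rosi. It too was lower in every polysome library than in any input library.

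Zfp746, also called PARIS, a repressor of the gene for the mitochondrial regulator PGC-1α, stood at log2 fold changes of -0.56 (SE 0.18) under Veh and -0.54 (SE 0.16) under Rosi. Zfp777 was at -0.71 and -0.56, Zfp710 at -0.60 and -0.63 and Zfp956 at -0.64 and -0.58. The GC content of these low genes ran from 54.5% in Zfp956 to 60.6% in Zfp703, and that of Zfp946, Zfp873, Zfp759 and Zfp959 from 36.9% in Zfp946 to 41.3% in Zfp873. Zfp706, the gene of highest TPM, was higher in polysome RNA, at 0.65 (SE 0.10) under Veh and 0.49 (SE 0.09) under Rosi, with 43.4% GC. Zfp809, which silences murine leukaemia virus and related endogenous retroviruses and was named after its values were seen, stood at 0.22 under Veh and 0.44 under Rosi.

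**Figure D3:**
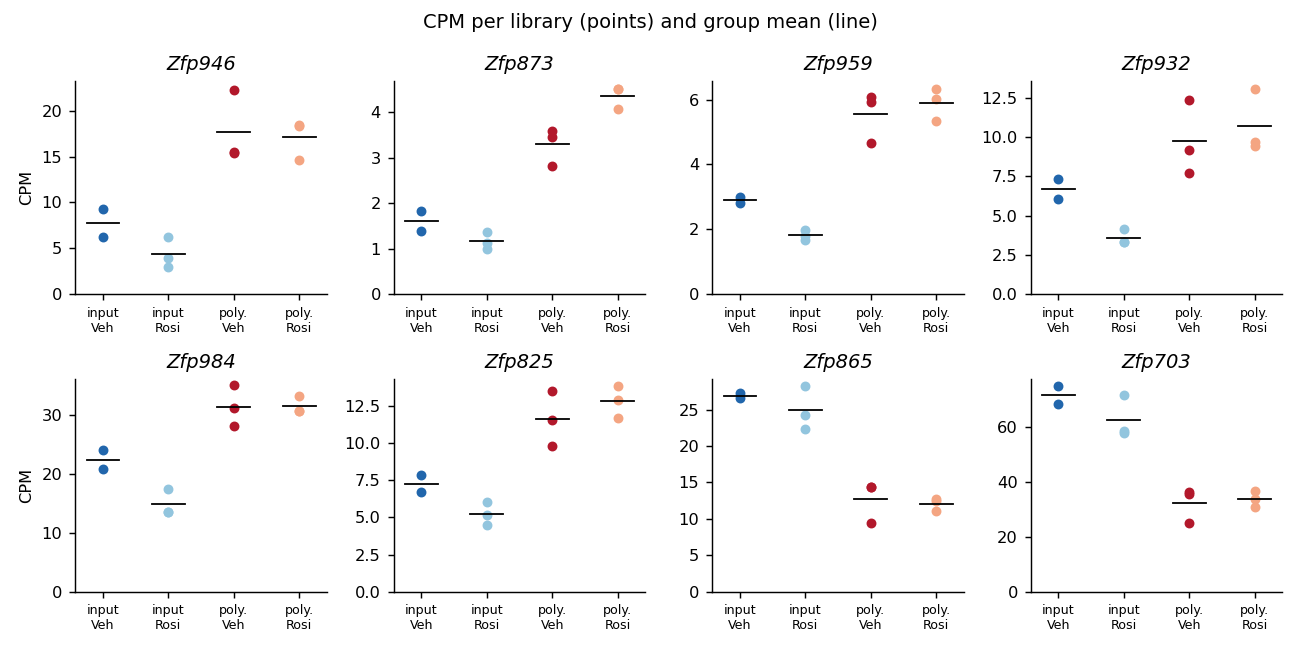
CPM (y axes, from 0) of 8 named high-numbered Zfp genes in each library (points) of the 4 groups, with the group mean as a line. Zfp946, Zfp873, Zfp959 and Zfp984 are higher in every polysome library than in any input library, Zfp865 and Zfp703 lower, and Zfp932 is lower in all 3 input Rosi libraries, at 3.30 to 4.14 CPM, than in the input Veh libraries, at 6.05 and 7.36 CPM.

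In 8 of 10 neighbourhoods the tested genes lay on 1 side of 0 under Rosi. With genes at most 500 kb apart counted as neighbours, these 10 neighbourhoods held 4 or more of the genes each and 70 of the 127 in all. On chromosome 17, between 21567008 and 22867134, all 13 genes from Zfp948 to Zfp945 were tested, and their ratios under Rosi ran from 0.64 to 1.97 with a median of 1.02 and a median GC content of 37.9%. On chromosome 4, between 145510759 and 147848366, 8 of 16 genes from Zfp990 to Zfp933 were tested and ran from 0.81 to 1.41, at a median GC content of 36.7%. On chromosome 13, between 67038596 and 67687071, the 6 genes from Zfp712 to Zfp738 ran from 0.78 to 3.09. The upper end was Zfp708, an uncertain value that moved between 2.47 and 7.66 as single libraries were left out, and the next was Zfp759 at 1.90.

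The neighbourhoods rich in G and C went the other way. On chromosome 6, between 47819266 and 48086593, Zfp786, Zfp956, Zfp777 and Zfp746 ran from -1.23 to -0.54 under Rosi, at a median GC content of 55.3%. On chromosome 7, between 127244274 and 127406822, Zfp771, Zfp768, Zfp747 and Zfp764 ran from -0.40 to -0.22, at 55.7%. In 2 neighbourhoods the signs were mixed, on chromosome 17 between 32765496 and 33033402, where 5 of 6 genes lay above 0 and the range was -0.20 to 1.09, and on chromosome 8 between 69209038 and 69791178, where 4 of 5 did and the range was -0.03 to 1.50. Position and GC content moved together here, and their parts were not tested.

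**Figure D4:**
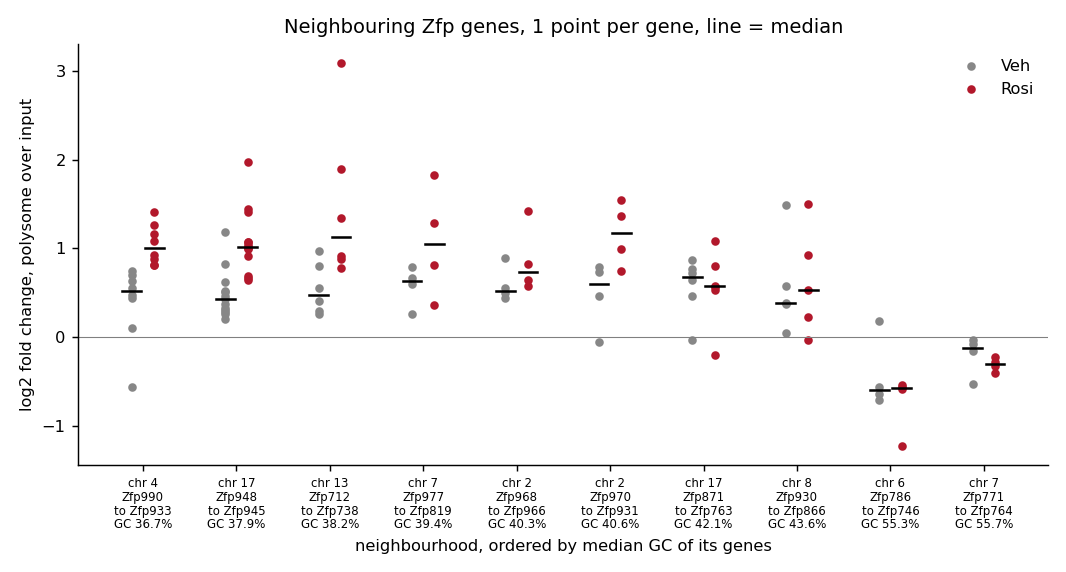
Log2 fold change of polysome over input (y axis) under Veh (grey) and Rosi (red) for the tested genes of 10 neighbourhoods (x axis, named by their first and last gene and ordered by the median GC content of their genes), 1 point per gene with the median as a line. The 8 neighbourhoods with a median GC content of up to 43.6% have medians of 0.38 to 0.68 under Veh and 0.53 to 1.18 under Rosi, and the 2 above 55% have medians below 0.

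In total RNA, no high-numbered Zfp gene passed the test for Rosi against Veh. The comparison within input asks which transcripts Rosi altered in amount, and with edgeR 0 of 101 genes were called (thresholds of 0.05 for the adjusted p and 0.2 for the size of the log2 fold change), beside 1.34% of all 13597 genes in either direction and 0.206% lower. More of the fitted values lay below 0 than above, a lean that the choice of genes by their ratio favours, with 68 genes below 0 and 33 above and a median of -0.20 against 0.01 over all genes. At an unadjusted p under 0.05 there were 23 genes, beside 2308 of all 13597. Every Rosi library lay below every Veh library for 36 of the 101 genes (23.9% of all genes) and above for 3 (12.8% of all genes). The median was -0.36 over the 82 genes with the KRAB pattern, of which 62 lay below 0, and 0.03 over the 19 without it. Among the Zfp genes numbered below 700, the median was -0.14 over 102 with the pattern, of which 61 lay below 0. It was 0.05 over the 116 without it.

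The smallest p on the lower side belonged to Zfp932, Zfp984 and Zfp931. Zfp932 (chromosome 5, 109996521-110010411), a KRAB protein that binds endogenous retroviruses, measured 6.05 and 7.36 CPM in input Veh and 4.14, 3.30 and 3.31 CPM in input Rosi. The groups did not overlap, and the fit gave -0.84 on the log2 scale (SE 0.20, adjusted p = 0.0689). Zfp984 measured 20.9 and 24.2 CPM in input Veh and 17.5, 13.6 and 13.6 CPM in input Rosi, which the fit put at -0.53 (SE 0.14, adjusted p = 0.084). Zfp931 measured 7.83 and 7.68 CPM against 5.42, 4.62 and 4.23 CPM, which the fit put at -0.64 (SE 0.18, adjusted p = 0.109). For both, every Rosi library lay below every Veh library. Only 31.2% of the 31-base stretches of Zfp984 and 51.8% of those of Zfp932 were unique.

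On the higher side the smallest p belonged to Zfp839, at 4.77 and 5.12 CPM in input Veh and 6.95, 6.07 and 6.38 CPM in input Rosi (log2 fold change 0.45, SE 0.18, adjusted p = 0.229), then Zfp706 (0.21, SE 0.10, adjusted p = 0.328) and Zfp870 (0.33, SE 0.22, adjusted p = 0.459). Zfp825, a KRAB gene that the study's article names together with Zfp932, measured 6.73 and 7.84 CPM in input Veh and 6.06, 5.15 and 4.47 CPM in input Rosi (log2 fold change -0.42, SE 0.19, adjusted p = 0.288).

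The calls in input depended on the libraries, the filter and the tool. Without input Rosi replicate 1, in which the group stood nearest to Veh, 17 of the 101 genes were called lower, beside 6.52% of all genes, and Zfp932, Zfp984 and Zfp931 were among them. With all libraries kept and no count filter, 11 of 119 genes were called, all lower. Beside them 4.73% of all genes were called in either direction, and 425 of 19167 lower. With DESeq2 2 of 101 were called, also lower, beside 2.93% of all genes in either direction and 159 of 13597 lower. GC content ran along with this comparison also. Spearman's rho between GC content and the fitted value was 0.67 over the 101 genes and 0.00 over the other 13078 protein-coding genes. Genes of 38 to 42% GC had a median of -0.42 (38 genes), beside -0.15 over 1065 other protein-coding genes, and below 38% GC the medians were -0.51 (21 genes) and -0.32 (174 other genes). With the GC trend removed from each library the median of the 101 genes was -0.09, and none was called.

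**Figure D5:**
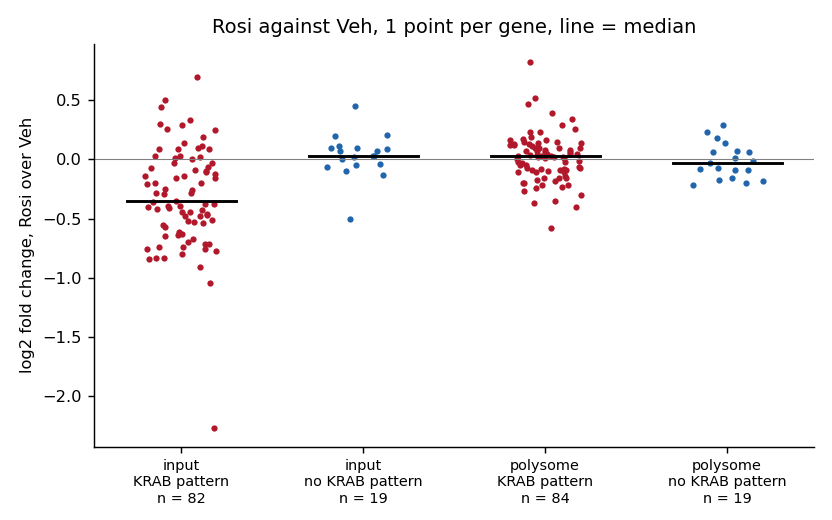
Log2 fold change of Rosi over Veh (y axis) within input and within polysome RNA for high-numbered Zfp genes with and without the KRAB pattern, 1 point per gene tested with the median as a line. The KRAB genes have a median of -0.36 in input (82 genes) and 0.03 in polysome RNA (84 genes), and the 19 genes without the pattern have medians of 0.03 and -0.03.

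In polysome RNA the genes were spread about 0. No gene of 103 was called for Rosi against Veh by edgeR, beside 0.655% of all 13430 genes, and 2 genes had an unadjusted p under 0.05. Of the 103 genes, 55 lay above 0 and 48 below, with a median of 0.02 against -0.01 over all genes. Zfp715 measured 20.2, 19.6 and 17.4 CPM in polysome Veh and 13.8, 15.1 and 15.7 CPM in polysome Rosi, without overlap (log2 fold change -0.37, SE 0.13, adjusted p = 0.652). Zfp866 followed, at 5.57, 8.79 and 6.07 CPM against 5.43, 4.12 and 4.21 CPM (-0.58, SE 0.21, adjusted p = 0.783), and Zfp771 at -0.20 (SE 0.13, adjusted p = 1.0). On the higher side Zfp873 stood at 0.39 (SE 0.20), Zfp951 at 0.29 (SE 0.18) and Zfp760 at 0.47 (SE 0.30), each with an adjusted p = 1.0. With standard errors of 0.13 to 0.30 for these 6 genes, changes of that size were not detectable here.

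The ratio of polysome to input differed between Rosi and Veh in the same sense for most of the genes, but for none of them past the threshold. The interaction of fraction and treatment, which is the change of the polysome over input ratio with Rosi, had 0 calls among 104 genes and 0 among all 14027 (0.0%), with 21 and 959 at an unadjusted p under 0.05. It is a description here, being the difference of the 2 ratios that guided the choice of genes. Its median was 0.26 against 0.06 over all genes, and 0.06 with the GC trend removed. Without polysome Veh replicate 1 the median was 0.48. Of the 104 genes, 79 lay above 0 and 25 below, beside 59.1% of all genes above 0. Below 38% GC, 95.5% of these genes and 84.4% of the other protein-coding genes lay above 0. At 38 to 42% GC, 95% and 81.9% did.

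The smallest p on the higher side belonged to Zfp951, whose log2 ratio was 0.31 under Veh and 1.41 under Rosi (interaction 1.10, SE 0.31), Zfp932, at 0.54 and 1.58 (1.05, SE 0.29), and Zfp984, at 0.48 and 1.09 (0.60, SE 0.19). Zfp825 was at 0.67 and 1.30 (0.63, SE 0.24). The adjusted p was 0.719 for each of these 4 genes. The article names Zfp825 and Zfp932 among transcripts whose translation efficiency rose with Rosi. It took them from an interaction fitted per transcript on these same data, whereas the values here are per gene. For these genes the article also reports a G-rich motif in the untranslated stretch before the coding sequence. The GC content given here is that of the whole transcript. In Zfp932 the polysome level was 9.77 ± 2.39 CPM under Veh and 10.7 ± 2.03 CPM under Rosi (SD, n = 3), which overlapped, while the input level was 6.71 ± 0.921 CPM (n = 2) and 3.59 ± 0.481 CPM, which did not. On the lower side Zfp839 was at 0.35 under Veh and -0.19 under Rosi (-0.54, SE 0.23), Zfp870 at 0.87 and 0.53 (-0.35, SE 0.26) and Zfp786, at under 1 CPM in every library, at 0.18 and -1.23 (-1.42, SE 0.84).

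The mean shares of transcript classes among the reads of these genes also differed between fractions in these libraries. Annotated protein-coding transcripts took 95.0 ± 0.576% of the genes' estimated reads in input Veh (n = 2) and 95.9 ± 0.209% in polysome Veh (SD, n = 3). Transcripts annotated with a retained intron took 3.08 ± 0.152% in input Veh and 1.27 ± 0.119% in polysome Veh. Under Rosi they took 2.97 ± 0.677% in input and 1.44 ± 0.0380% in polysome RNA. Transcripts annotated with nonsense-mediated decay took 1.34 ± 0.313% in input Veh and 1.94 ± 0.332% in polysome Veh. Their shares under Rosi were 1.54 ± 0.157% in input and 2.22 ± 0.175% in polysome RNA. No test was made on these shares, and they were not taken over other genes.

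The partners of KRAB proteins were read from a list of 28 corepressors and heterochromatin genes. None of the 28 was called for Rosi against Veh in input or in polysome RNA, beside 1.34% and 0.655% of all genes. The medians were 0.02 and -0.01. Their polysome over input ratios had medians of -0.17 under Veh and -0.15 under Rosi, against 0.02 and 0.00 over all genes. Under each treatment 1 gene was called higher and 3 lower. Of all genes, 2.99% were called higher and 6.69% lower under Veh, and 6.49% and 4.85% under Rosi. Nothing is read from these small counts. Trim28, the corepressor that KRAB domains bind, was among the lower ones at -1.56 under Veh and -1.24 under Rosi, as were the maintenance methyltransferase Dnmt1 (-1.41 and -1.53) and its cofactor Uhrf1 (-1.56 and -1.24). Cbx3, a heterochromatin protein, was higher at 1.14 and 1.15. Setdb1, which methylates histone H3 at KRAB targets, stood at -0.67 and -0.55.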

How the data were processed

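The submitters' processing notes name bcl2fastq 2.17, FastQC, Salmon, DESeq2 and the mm10 build (other versions are not given in the sources used here). The authors deposited an estimated count and a TPM for each of 117135 transcripts per library. The libraries called by the tissue name alone were taken as polysome. The design text gives another number of days than the protocols, from which 4 was kept.

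Of the transcripts, 115895 matched GENCODE M21 and were summed to 35453 genes. Estimated counts were rounded. The unmatched 1240 held 0.4 to 0.485% of reads. Input Veh replicates 2 and 3 were identical and counted once.

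Genes were filtered with filterByExpr, scaled with TMM and tested two-sided in edgeR 4.0.16 under R 4.3.3 by quasi-likelihood, with Benjamini-Hochberg adjustment over all genes. Input and polysome were fitted separately and the other contrasts in 1 fit of 4 groups. A standard error is the size of a log2 fold change divided by the square root of its F statistic. P-values measure the spread between libraries only. The scripts were tested on simulated data. CPM use the library sizes of the 4-group fit.

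The named genes are the 6 highest and 6 lowest mean polysome over input ratios, the 6 highest TPM in input, the 3 of smallest p per side in each Rosi comparison and in the interaction, Zfp825 and Zfp932, and those at the number limits. The genes, lists and tests were chosen with earlier results of these data known. GC content, KRAB pattern, shared 31-base stretches and the GC trend (lowess, span 0.3, as an offset) were added after seeing the data. Of 11 nuclear noncoding RNAs listed for comparison, 1, Snhg11, was among the genes summed, at 0 in input and at most 0.149 CPM in polysome libraries, and the list was not used. The 13 mitochondrial mRNAs listed had medians of -0.21 and -0.83 for polysome over input under Veh and Rosi, with 1 and 6 called lower. Of all genes, 6.69% and 4.85% were called lower. Other cell type lists summed in input to 10.6 to 14.6 CPM (endothelium), 5403 to 6480 CPM (smooth muscle), 72.2 to 124 CPM (epididymis) and at most 0.166 CPM (erythroid).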

Additional observations from a re-analysis of the deposited data

How the results depend on the processing

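Unless stated, a count is of high-numbered Zfp genes called and a median is of their log2 fold changes, with the share of all genes called in either direction beside each count. For polysome over input these are descriptions. With limma on log2(TPM + 1), 5 genes were called for polysome over input under Veh (6.51%) and 12 under Rosi (6.72%), where the median was 0.54. With the GC trend removed, 1 and 4 genes were called (4.06% and 4.01%) and the medians were 0.06 and 0.10, and with this and the replicate block 0 and 4 genes (3.89% and 3.91%), with medians of 0.07 and 0.11. The same 2 settings turned polysome over input under Veh for Zfp708 (to -0.11 and -0.01) and Zfp932 (to -0.01 and -0.07). For Rosi against Veh in input, 0 calls became 2 with DESeq2 (2.93%), 11 with no count filter (4.73%), 5 with all 12 libraries as deposited (7.85%) and 17 without input Rosi replicate 1 (11.7%), all lower. In the same order, 159 of 13597, 425 of 19167, 408 of 13414 and 879 of 13478 of all genes were called lower. The interaction had 2 calls with no count filter (0.277%) and 0 under the other settings.

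Leaving out 1 library at a time, the count under Veh ran from 4 to 11 (4 without polysome Veh replicate 1) and the median from 0.38 to 0.58. Under Rosi they ran from 32 to 44 and from 0.75 to 0.93. In input they ran from 0 to 17 and from -0.32 (without input Veh replicate 1) to -0.15. In polysome RNA the count stayed at 0 and the median ran from -0.03 to 0.12, and for the interaction at 0 and from 0.19 to 0.48.

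Same-numbered libraries correlated at -0.23 to 0.12 in their deviations from the group means. Differently numbered libraries were not compared, so these values cannot settle whether the numbers pair the libraries. With the replicate block alone, 39 genes were called under Rosi (11.4%) and 0 in input, in polysome RNA and for the interaction. Without polysome Veh replicate 1 and Rosi replicate 3 together, the counts were 6 and 32 (7.11% and 9.89%). Low counts limit the genes at under 1 CPM.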
